A study of Homo sapiens with 4 samples.

Results

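The genes described here are 10 growth arrest and stress genes, most of them known as targets of the tumour suppressor p53: CDKN1A, PLK3, GADD45A, GADD45B, BTG1, BTG2, MDM2, PHLDA3, SESN1 and TP53INP1. They were measured in U937, an established human lymphoma cell line of monocytic type that is known to lack functional p53. Every probe set that the platform annotation pairs with 1 of these symbols was taken, which gave 28 of the 54613 probe sets that are not array controls, and none of the 28 carried a second symbol. These 28 stood for 9 of the 10 genes, out of 19775 genes in all. BTG2 was paired with no probe set in the annotation used here and was not analysed here. The p53 gene itself was also not analysed here, so the p53 deficiency named for this line was not checked on these arrays.

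The 4 arrays came from 4 groups of U937 cells with 1 array each. The groups were untreated control cells, cells given the microbubble contrast agent Sonazoid at 0.05%, cells given 1 min of ultrasound at an intensity of 0.3 W/cm2, and cells given both (the combination). Treated cells were kept for 3 h at 37°C before RNA was taken, and the sources used here do not say whether the control was kept as long. With 1 array per group there was no replicate and the groups were not tested against each other, so each difference below lies between single arrays of 1 cell line.

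Background on this group of genes helps in reading the values. When DNA is damaged, p53 is stabilised and binds its response elements in genes such as CDKN1A, MDM2 and SESN1. CDKN1A then holds cyclin-dependent kinases in check, while MDM2 sends p53 to degradation and closes the loop. Several of these genes can also be induced without p53, since CDKN1A, PLK3, the GADD45 genes and the BTG genes are known to respond to stress kinases, serum or cytokines as early response genes.

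Signals are probe set intensities scaled so that the 4 arrays share a trimmed mean, on a linear scale. A value under 23.8, the median of all scaled values, counts as at the floor, and a log2 difference from or to the floor is only a minimum, written "at least". Each gene is represented by its brightest probe set, and 1.5-fold is the size that counts as higher or lower. Of the 28 probe sets, 19 were above the floor on at least 1 array and 14 on all 4. At gene level 8 of the 10 genes could be described, since the 3 probe sets of TP53INP1 were at the floor on all arrays. In bulk RNA, fewer cells with a transcript and less of it per cell cannot be told apart.

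Across the 8 measured genes, 6 had both arrays with ultrasound above both arrays without it. They were CDKN1A, the inhibitor of cyclin-dependent kinases, the stress kinase PLK3, the stress sensors GADD45A and GADD45B, the antiproliferative factor BTG1 and the stress-inducible metabolic regulator SESN1. Of all 13965 genes above the floor, 18.8% had this order, and 17.8% had the opposite one, which 0 of the 8 members had. By probe set, 11 of the 19 above the floor had both arrays with ultrasound above both without, beside 16.9% of all probe sets, and 2, of MDM2 and PHLDA3, had both below, beside 17.4%. By their brightest probe sets MDM2, the ubiquitin ligase for p53, and PHLDA3, which competes with the kinase AKT for membrane lipids, were outside this pattern. The members were chosen with earlier results of these data known, so these counts are a description and not a test of the group.

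The promoters of the members that stood higher with ultrasound and have a single RefSeq start, CDKN1A, PLK3, GADD45B and BTG1, are shown with that of MDM2, which did not. Each is the 250 bases before the start in RefSeq (GRCh38.p14), 5′ to 3′ on the gene's strand. MDM2 has 4 RefSeq starts, and the one shown is an internal start. Capitals mark the motifs found on either strand. For the factor Sp1 the letters searched were GGGCGG, and for the box that places the start of transcription they were TATAAA. For the core of the cAMP response element they were TGACG, and for the AP-1 factors FOS and JUN they were TGANTCA. In these windows no match overlaps a match of a different motif. The spans are chr6:36678464-36678713 on the plus strand for CDKN1A, chr1:44800127-44800376 on the plus strand for PLK3, chr19:2475877-2476126 on the plus strand for GADD45B, chr12:92145847-92146096 on the minus strand for BTG1, and chr12:68808767-68809016 on the plus strand for MDM2.
CDKN1A: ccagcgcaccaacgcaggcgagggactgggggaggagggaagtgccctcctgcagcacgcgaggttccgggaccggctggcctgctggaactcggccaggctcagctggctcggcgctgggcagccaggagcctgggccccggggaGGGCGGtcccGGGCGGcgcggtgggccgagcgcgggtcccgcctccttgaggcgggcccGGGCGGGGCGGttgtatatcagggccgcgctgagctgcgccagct
PLK3: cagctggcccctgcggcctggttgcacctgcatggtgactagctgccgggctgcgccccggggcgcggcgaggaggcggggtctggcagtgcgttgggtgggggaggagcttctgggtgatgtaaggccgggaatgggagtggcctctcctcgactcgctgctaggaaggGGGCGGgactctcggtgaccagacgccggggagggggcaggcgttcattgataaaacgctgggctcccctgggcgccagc
GADD45B: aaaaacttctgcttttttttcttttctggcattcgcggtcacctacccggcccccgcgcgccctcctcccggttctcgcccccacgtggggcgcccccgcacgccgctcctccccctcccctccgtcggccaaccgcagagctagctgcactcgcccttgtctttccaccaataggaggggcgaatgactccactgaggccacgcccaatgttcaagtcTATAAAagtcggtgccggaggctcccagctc
BTG1: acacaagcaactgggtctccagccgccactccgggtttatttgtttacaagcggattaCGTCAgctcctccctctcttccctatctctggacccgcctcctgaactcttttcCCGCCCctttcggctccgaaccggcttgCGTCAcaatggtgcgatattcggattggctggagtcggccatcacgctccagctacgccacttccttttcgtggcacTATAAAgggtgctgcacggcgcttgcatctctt
MDM2: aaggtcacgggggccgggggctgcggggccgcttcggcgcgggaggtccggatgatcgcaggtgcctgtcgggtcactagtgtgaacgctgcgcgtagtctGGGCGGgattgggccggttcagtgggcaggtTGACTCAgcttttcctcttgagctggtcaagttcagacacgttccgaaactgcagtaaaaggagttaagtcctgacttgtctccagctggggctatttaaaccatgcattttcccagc

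The 4 promoters of the higher genes did not share 1 of the motifs searched. CDKN1A held GGGCGG at 4 places, which began 104, 94, 45 and 40 bases before the start, the last 2 of them sharing 1 base. PLK3 held it once, 80 bases before the start, and BTG1 once, at 138. GGGCGG is in 42.6% of all 35116 RefSeq promoter windows of this length. TATAAA began 31 bases before the start of GADD45B and 33 before that of BTG1, and it is in 10.7% of all windows. BTG1 also held TGACG at 192 and 110 bases, a motif in 21.2% of all windows. TGANTCA, in 6.57% of all windows, was found in the MDM2 window shown, 118 bases before the start, and in none of the 4 of the higher genes. It lies in 2 of the MDM2 windows, which overlap at this site, and the windows of the other MDM2 starts held none.

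No match to the cAMP response element TGACGTCA, the heat shock element GAANNTTC, the EGR1 motif GCGTGGGCG, the NF-kB motif or the SRF CArG box was found in any of the 12 member windows, which cover 7 genes. These motifs are in 1.65%, 5.78%, 0.72%, 1.73% and 1.16% of all windows. The p53 decamer, the unit of which a p53 response element holds a pair, matched 1 member window, 49 bases before 1 of the 3 starts of SESN1, and matched 5.57% of all windows. These are matches of letters within the windows only. The p53 elements known for CDKN1A lie farther upstream, and a known element need not match the decamer at every base. A window without a match, that of MDM2 included, is therefore not shown to lack a p53 element.

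CDKN1A encodes p21, which binds cyclin-CDK complexes and PCNA. Its single probe set was at 77.0 in control, 33.0 after Sonazoid, 148 after ultrasound and 133 after both. The 2 arrays with ultrasound lay close together and above both others, and the Sonazoid array was the lowest. Ultrasound only was 1.92-fold above control (log2 0.94), and the combination was 4.03-fold above Sonazoid only (log2 2.01). These comparisons share no array, and CDKN1A was the only member at 1.5-fold in both, a size that 1.77% of the 12009 genes measured in both reached upward and 0.6% downward. Among genes with a mean signal between the floor and 100, where CDKN1A lies, 3.67% reached it upward in both and 1.88% downward. The difference between the comparisons was 1.07 on the log2 scale, and Sonazoid only was 2.33-fold below control (log2 -1.22).

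The low Sonazoid value of CDKN1A had no counterpart under ultrasound. The combination and ultrasound only differed by log2 -0.15, and by 0.06 with the values as deposited. The mean signal of CDKN1A over the 4 arrays was under 100. Among genes with a mean signal between the floor and 100, 24.7% differed by 1.5-fold either way between Sonazoid only and control, against 3.77% of those between 100 and 400 and 0.233% of those over 400. Whether the Sonazoid value of CDKN1A lies in this spread was not tested, as no second probe set or array was there to compare.

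PLK3, a polo-like kinase that responds to stress and phosphorylates p53 and CDC25 phosphatases, was at 44.2 in control, 75.9 after Sonazoid, 130 after ultrasound and 87.6 after both. Both arrays with ultrasound were above both without, but the combination exceeded Sonazoid only by just 1.15-fold. Ultrasound only was 2.94-fold above control (log2 1.56), the largest difference from control among the brightest probe sets of the members. Of genes with a mean signal between the floor and 100, where PLK3 lies, 27.4% passed 1.5-fold either way in that comparison. By its brightest probe set the departure from additivity was log2 -1.35, so by it the 2 agents together gave less on the log2 scale than the sum of each alone. PLK3 was 1.72-fold higher with Sonazoid only than in control, and in the combination it was 1.49-fold lower than with ultrasound only.

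A second probe set of PLK3 gave another picture of the Sonazoid array. It was at 39.4 in control, at the floor after Sonazoid, at 46.1 after ultrasound and at 50.5 after both. Here too both arrays with ultrasound were the highest, yet Sonazoid only was at least 1.65-fold below control instead of above it. The combination was at least 2.12-fold above Sonazoid only by this probe set, and ultrasound only 1.17-fold above control. Its departure from additivity was at least log2 0.86, opposite in sign to that of the brightest probe set. The third probe set of PLK3 was at the floor on all arrays. The order with and without ultrasound was thus shared by the probe sets of PLK3 above the floor. The direction of the Sonazoid difference and the sign of the departure from additivity were not.

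**Figure D1:**
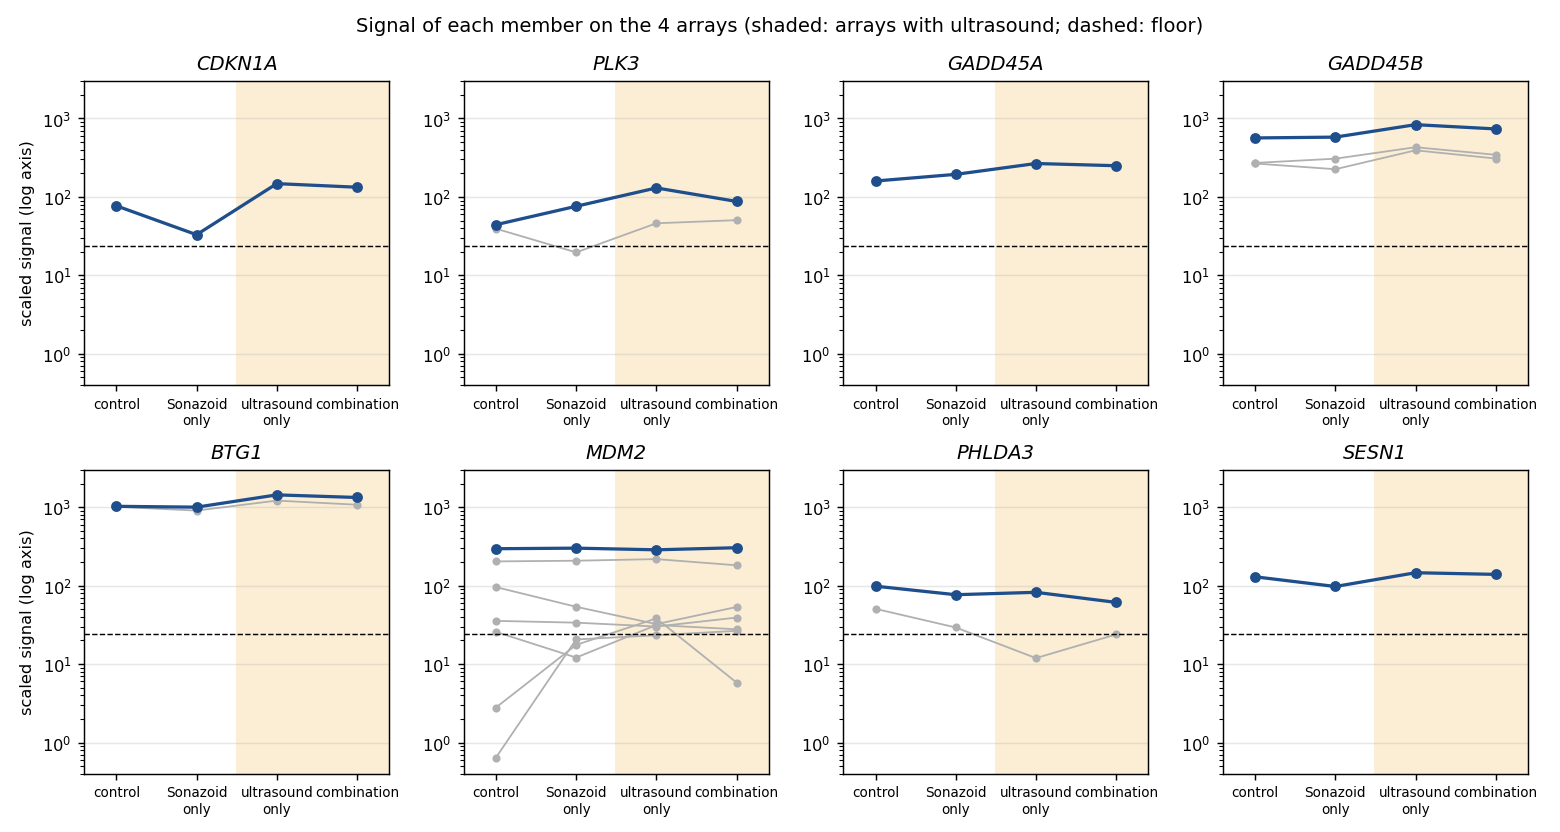
Scaled signal (log axis) of each measured gene on the 4 arrays, with the brightest probe set in blue, other probe sets above the floor on at least 1 array in grey, the floor of 23.8 dashed and the arrays with ultrasound shaded. CDKN1A goes from 77.0 in control to 148 with ultrasound only, while the brightest probe set of MDM2 stays between 286 and 304.

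The GADD45 proteins are small acidic stress sensors that bind the kinase MAP3K4, PCNA and p21. GADD45A, the family member known as a p53 target, was at 159 in control, 194 after Sonazoid, 267 after ultrasound and 250 after both. The arrays with ultrasound were close to each other and above both without, and Sonazoid only lay between them and control. The differences were 1.67-fold for ultrasound only against control (log2 0.74), 1.29-fold for the combination against Sonazoid only (log2 0.37) and 1.57-fold for the combination against control (log2 0.65).

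GADD45B, known as a target of NF-kB and TGF-beta signals, had 3 of its 4 probe sets above the floor. The brightest was at 565 in control, 578 after Sonazoid, 834 after ultrasound and 735 after both. The arrays without ultrasound were nearly equal, and those with it were both higher. The next 2 probe sets also had both arrays with ultrasound above both without, though they placed Sonazoid on opposite sides of control. They were at 271 and 267 in control, 307 and 225 after Sonazoid, 430 and 393 after ultrasound, and 344 and 308 after both.

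By the 3 probe sets of GADD45B, ultrasound only was between 1.47-fold and 1.59-fold above control, and the combination between 1.12-fold and 1.37-fold above Sonazoid only. The combination was below ultrasound only by each of the 3, by 1.13-fold to 1.27-fold; with the values as deposited the brightest one turned to log2 0.03. GADD45G, the third gene of the family, was at 26.6 in control and at the floor on the other arrays, so each treated array was below control by at least log2 0.16.

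BTG1 encodes an antiproliferative protein that brings the CCR4-NOT deadenylase to messenger RNAs and is a brake on proliferation in blood cells. Its brightest probe set was at 1025 in control, 999.97 after Sonazoid, 1434 after ultrasound and 1329 after both. The pairs with and without ultrasound were each close together and apart from each other. Ultrasound only was 1.40-fold above control (log2 0.48) and the combination 1.33-fold above Sonazoid only (log2 0.41), with a departure from additivity of log2 -0.07.

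The second probe set of BTG1 had the same order with smaller differences, at 1011 in control, 904 after Sonazoid, 1213 after ultrasound and 1074 after both. Its differences were 1.20-fold and 1.19-fold. Neither GADD45B nor BTG1 reached 1.5-fold in both comparisons by its brightest probe set. Among genes with a mean signal over 400, where both lie, 0.854% reached that size upward in both, and 22% had both arrays with ultrasound above both without.

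MDM2 differed little by its brighter probe sets. The brightest was at 295 in control, 300.3 after Sonazoid, 286 after ultrasound and 304 after both, so all 4 arrays lay close together. Both arrays with Sonazoid were above both others, an order that 13.8% of all genes had. The next was at 204, 208, 218 and 182 in the same order of arrays. Ultrasound only differed from control by log2 -0.05 and 0.10 by these 2, and the combination from Sonazoid only by 0.02 and -0.19. Neither reached 1.5-fold in any of the 5 comparisons.

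The dimmer MDM2 probe sets did not share a direction. Of the 10 probe sets 7 were above the floor on at least 1 array, and 4 on all. The third by brightness was at 95.8 in control, 53.7 after Sonazoid, 32.3 after ultrasound and 53.4 after both, so ultrasound only was 2.97-fold below control. The combination and Sonazoid only were nearly equal by it (log2 -0.01). The next was between 30.1 and 39.1 on all arrays. Another was at 25.7 in control, at the floor after Sonazoid, at 31.4 after ultrasound and at 27.8 after both, so by this one both arrays with ultrasound were the highest. The last 2 were above the floor on 1 array each, at 38.2 with ultrasound only and at 26.5 in the combination.

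PHLDA3 was lower on each treated array than in control. Its brightest probe set was at 98.3 in control, 76.6 after Sonazoid, 82.2 after ultrasound and 61.1 after both. The combination was the lowest and was 1.61-fold below control (log2 -0.69). PHLDA3 was the only member at 1.5-fold downward in that comparison, where 4.67% of all genes were. Of genes with a mean signal between the floor and 100, where PHLDA3 lies, 26.6% passed that size either way there. Each agent alone differed by less, log2 -0.36 for Sonazoid only and -0.26 for ultrasound only. With the values as deposited the combination was at log2 -0.51 from control, short of 1.5-fold.

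The second PHLDA3 probe set was at 50.6 in control, 29.3 after Sonazoid, at the floor after ultrasound and at 23.9 after both. It too was highest in control, by 1.73-fold over Sonazoid only, by at least 2.12-fold over ultrasound only and by 2.12-fold over the combination. Control was therefore the highest array by both probe sets of PHLDA3, which both have dim signals. PHLDA3 was also the 1 member with both Sonazoid arrays below both others by its brightest probe set, an order that 16% of all genes had.

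SESN1, which restrains mTORC1 and peroxide levels after p53 activation, was at 130 in control, 97.4 after Sonazoid, 146 after ultrasound and 139 after both. The arrays with ultrasound were above both others, but by only 1.07-fold at the nearest. Most of its spread lay in the Sonazoid array, 1.33-fold below control and 1.43-fold below the combination. TP53INP1, which promotes p53 phosphorylation and autophagy, was at 16.9 in control and between 2.94 and 3.49 on the treated arrays by its brightest probe set. All of these values are below the floor, so no difference is given for it.

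Set side by side, 3 members were higher by 1.5-fold with ultrasound only than in control: PLK3, CDKN1A and GADD45A. Of the 13043 genes measured there, 6.75% were higher and 4.03% lower by that size, and 0 of the 8 members were lower. In the combination against Sonazoid only, CDKN1A alone was higher by 1.5-fold, beside 5.85% of all genes, and 0 members were lower, beside 4.36%. In the combination against control PLK3 (1.98-fold), CDKN1A (1.73-fold) and GADD45A (1.57-fold) were higher, beside 5.87% of all genes. The first and the last of these comparisons share the control array. CDKN1A and PLK3 have a mean signal under 100. Of genes between the floor and 100, between 26.6% and 27.4% passed 1.5-fold either way in each of these comparisons. Of genes between 100 and 400, where GADD45A lies, between 6.74% and 7.93% did.

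The median over the 8 members was log2 0.52 for ultrasound only against control and 0.36 for the combination against Sonazoid only, where the medians over all genes were 0.02 and -0.0016. As the members were chosen with earlier results of these data known, these medians too are only a description. Between the arrays that differ in Sonazoid the members' medians were -0.0060 without ultrasound and -0.13 with it. For Sonazoid, PLK3 was higher by 1.5-fold against control, beside 3.96% of all genes, and CDKN1A was lower, beside 4.29%. In the combination against ultrasound only 0 members passed 1.5-fold upward, beside 4.36% of all genes, and 0 downward, beside 5.88%. No member passed that size the same way in both Sonazoid comparisons, beside 0.531% of all genes upward and 0.754% downward.

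**Figure D2:**
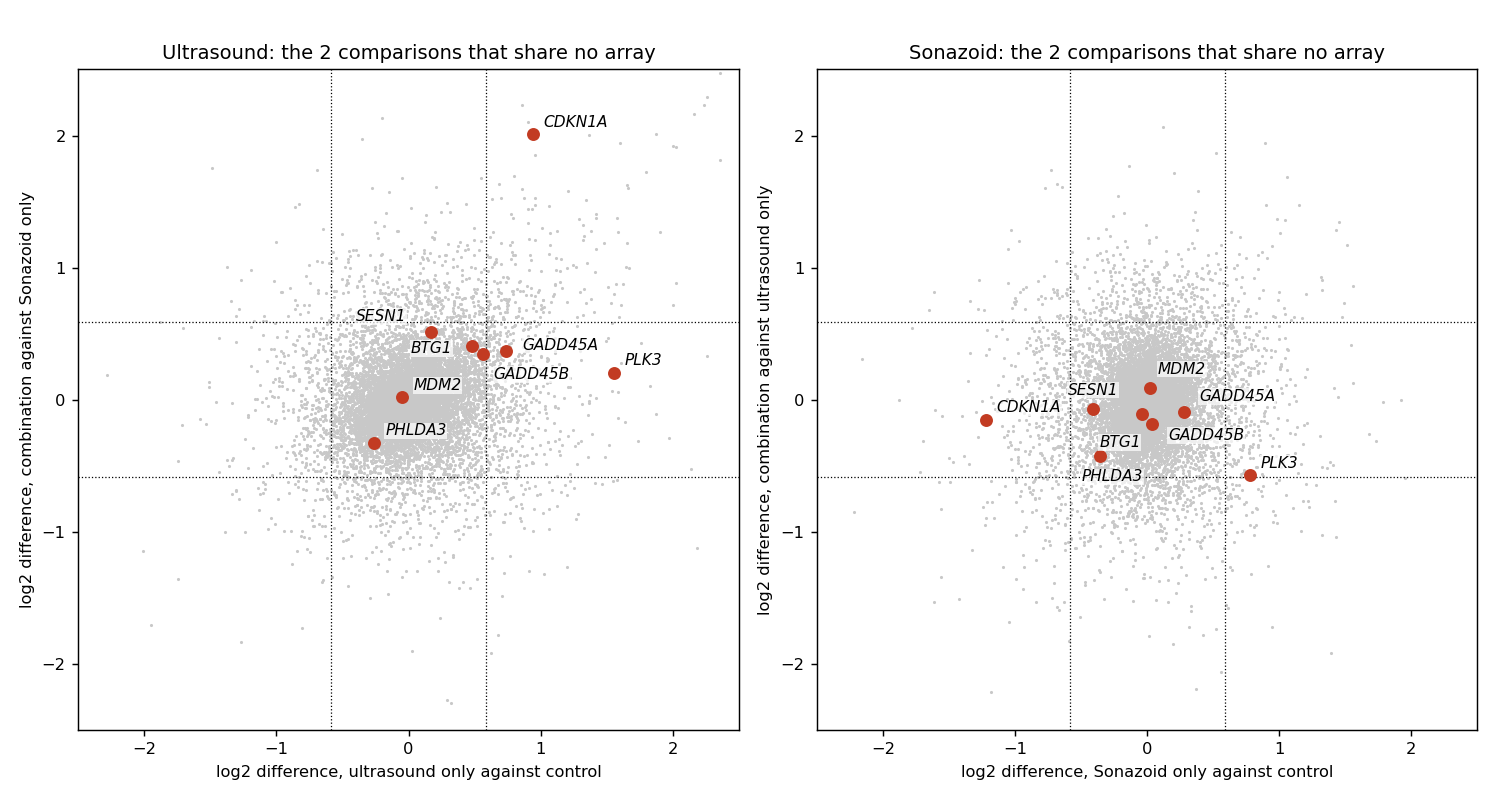
Log2 differences of the 8 members (red) and of all genes measured in both comparisons (grey), with ultrasound on the left and Sonazoid on the right; the axes of each panel are comparisons that share no array, dotted lines mark 1.5-fold, and 8 genes on the left and 2 on the right lie outside the axes. On the left 6 members lie above 0 on both axes, with CDKN1A at 0.94 and 2.01, and on the right no member lies past 1.5-fold the same way on both.

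**Figure D3:**
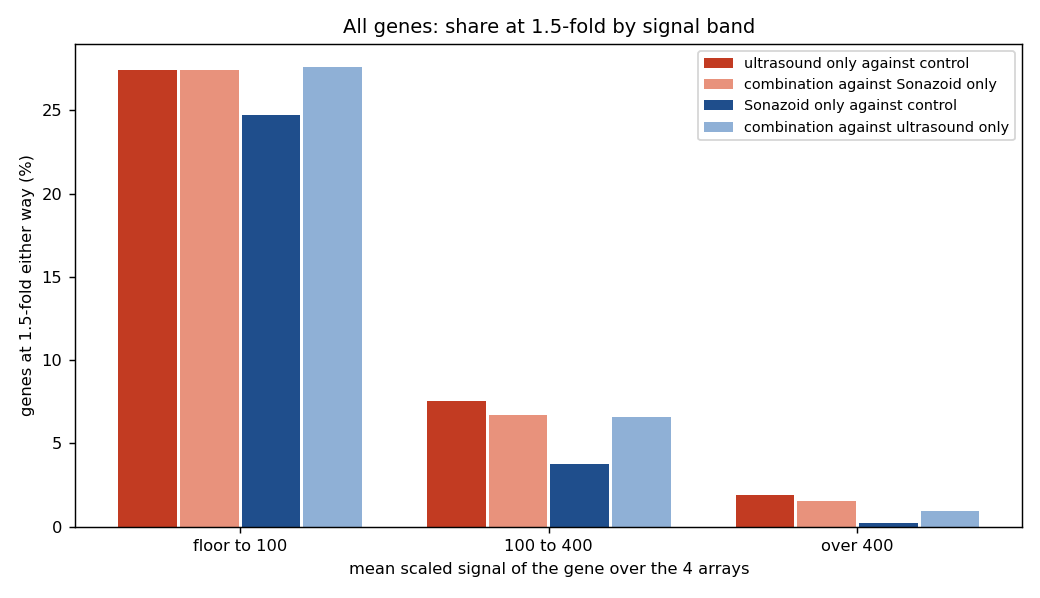
Share of all genes that differed by 1.5-fold either way (%), by the gene's mean signal over the 4 arrays, for the 4 comparisons that change 1 agent. The share falls from between 24.7% and 27.6% of genes under 100, where the mean signals of CDKN1A, PLK3 and PHLDA3 lie, to between 0.233% and 1.92% of genes over 400, where those of GADD45B and BTG1 lie.

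Regulators of p53 gave no difference of 1.5-fold by their brightest probe sets. Of 16 listed regulators of p53, 14 had a probe set, and 0 were past 1.5-fold in any of the 5 comparisons, where between 3.96% and 6.75% of all genes were higher and between 4.03% and 5.88% lower. However, 10 of the 14 have a mean signal over 400, where between 0.233% and 2.02% of all genes were past that size either way, so a count of 0 is near the background. MDM4, the partner of MDM2 in restraining p53, was at 627 in control, 541 after Sonazoid, 543 after ultrasound and 713 after both. The checkpoint kinase ATM was the farthest below control in the combination, at 268 and 192 (log2 -0.48), and the deubiquitinase USP7 the farthest above, at 1431 and 1788 (log2 0.32).

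Among 40 other p53 target genes 36 were above the floor on at least 1 array. Of the 35 measured in ultrasound only against control, 4 were higher by 1.5-fold and 2 lower, beside 6.75% and 4.03% of all genes, with a list median of log2 0.01. The higher ones were CD82, SESN2, BCL6 and NINJ1. The lower ones were PIDD1, from 53.6 to the floor (at least 2.25-fold), and GDF15, from 40.8 to the floor (at least 1.71-fold). PIDD1 was under 100 on each array. In the combination against Sonazoid only 4 of 34, PMAIP1, PIDD1, CCNG2 and BCL6, were higher and 0 lower, beside 5.85% and 4.36% of all genes, with a median of 0.0046. The only one of 33 higher in both was BCL6, a transcriptional repressor of the germinal centre, at 123 in control, 113 after Sonazoid, 206 after ultrasound and 214 after both. Its other 2 probe sets were dim, and 1 of them was lower with ultrasound only than in control (log2 -0.36).

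PMAIP1, the gene of the death-promoting protein NOXA, was at 745 in control, 705 after Sonazoid, 1069 after ultrasound and 1260 after both, with both arrays with ultrasound the highest. GDF15, a secreted stress cytokine, was the farthest below control in the combination, from 40.8 to the floor (by at least log2 0.77), followed by APAF1, the scaffold of the apoptosome (log2 -0.65). BCL6 was the farthest above (log2 0.80). Among the targets that serve DNA repair or nucleotide supply, DDB2, XPC and POLH differed from control by at most log2 0.10 after ultrasound only, and RRM2B, a ribonucleotide reductase subunit, was at log2 -0.42, and at -0.40 in the combination against Sonazoid only.

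Relatives of the members also differed among themselves. SESN2, the stress-inducible sestrin, is on both this list and that of the other p53 targets. It was at 121 in control, 172 after Sonazoid, 223 after ultrasound and 165 after both. Its highest array was the same as that of SESN1. Of 15 relatives measured in both ultrasound comparisons, 2 were higher by 1.5-fold in both and 0 lower, beside 1.77% and 0.6% of all genes. PLK1, the mitotic relative of PLK3, was the farthest below control in the combination (log2 -0.56), at 665 and 450. One of the higher genes was CDKN2D, the CDK4 and CDK6 inhibitor p19, at 75.2 in control, 80.0 after Sonazoid, 149 after ultrasound and 142 after both. Its second probe set was at the floor on all arrays. By the brighter probe set CDKN2D, like CDKN1A, had both ultrasound arrays close together, but its Sonazoid array was near control.

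The other was PHLDA1, a pleckstrin homology protein of the family of PHLDA3, at 61.7, 71.8, 368 and 356 on the control, Sonazoid, ultrasound and combination arrays. Its log2 differences were 2.57 and 2.31, where those of PHLDA3 were -0.26 and -0.33. Of the other 5 probe sets of PHLDA1, 3 were also higher by 1.5-fold in both, and 1 was lower with ultrasound only than in control (log2 -0.83). TOB1, related to the BTG genes, was at 257 in control, 326 after Sonazoid, 313 after ultrasound and 420 after both. The CDK inhibitor CDKN1B, closest to CDKN1A, was at 2015, 2076, 1696 and 2149, so its lowest array was ultrasound only, where CDKN1A was highest.

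Of 20 cyclins, cyclin-dependent kinases and other targets of arrest, 0 passed 1.5-fold in any of the 5 comparisons. Of these, 17 have a mean signal over 400, where at most 2.02% of all genes passed it, so this count too is near the background. The list medians were 0.04 for ultrasound only against control and -0.04 for the combination against Sonazoid only. MYC was at 6836 in control, 7287 after Sonazoid, 5728 after ultrasound and 5243 after both, with both ultrasound arrays the lowest. CCNE2, a G1/S cyclin, was the farthest above control in the combination, at 769 and 1074 (log2 0.48).

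Of the 12 CCR4-NOT subunits and partners bound by BTG proteins, 1 passed 1.5-fold in 1 of the 5 comparisons, and 10 have a mean signal over 400. It was CNOT3, at 185 in control, 173 after Sonazoid, 242 after ultrasound and 147 after both, so the combination was 1.64-fold below ultrasound only (log2 -0.71), beside 5.88% of all genes. CNOT3 was also the farthest below control in the combination (log2 -0.33), and CNOT10 the farthest above (log2 0.15), at 527 and 583.

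Of the 7 stress kinases measured next to GADD45, 3 passed 1.5-fold in at least 1 comparison, all with a mean signal under 100. Of all genes between the floor and 100, between 24.7% and 27.6% passed it either way in each single comparison. Such a call is therefore common among genes this dim. MAP2K6 was at the floor in control, at 33.3 after Sonazoid, at 45.8 after ultrasound and at the floor after both, so ultrasound only was above control and above the combination by at least 1.92-fold. MAPK11 was at 46.9 in control, at the floor after Sonazoid, at 68.6 after ultrasound and at 76.4 after both. Its Sonazoid array was the lowest, by at least log2 0.98 from control and 1.68 from the combination. MAPK11 (1.63-fold) and MAPK13 (1.70-fold, the farthest above) were higher in the combination than in control, beside 5.87% of all genes, and MAP2K4 was the farthest below (log2 -0.24). MAP3K4 itself was between 655 and 705 on the 4 arrays.

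**Figure D4:**
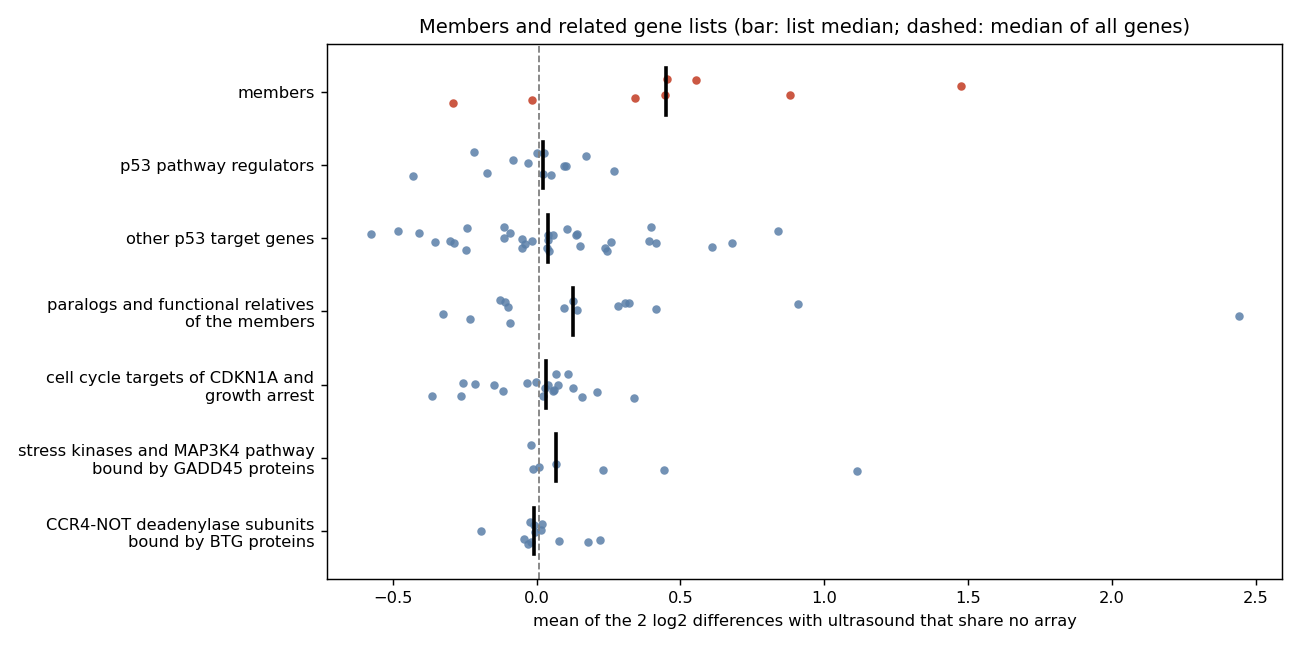
Each point is 1 gene, placed at the mean of its log2 differences in the 2 ultrasound comparisons that share no array, for the 8 members (red) and 6 related lists (blue); black bars are list medians and the dashed line is the median of all genes. The median of the members is 0.45 and that of the other p53 target genes 0.04, with PHLDA1 farthest to the right among the relatives. SESN2, TP53INP2 and MDM4 are on more than 1 list, so each is plotted more than once. Members and lists were chosen with earlier results of these data known.

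By pattern over the 4 arrays, the genes most like CDKN1A were sought among 8084 genes above 100 on every array, by the distance between the 3 log2 differences from control. The nearest were AHNAK (distance 0.81), SERTAD1 (0.98) and FOSL2 (1.03). CDKN1A itself, at 77.0 in control and 33.0 after Sonazoid, would not pass this filter, so genes as dim were not searched. These are not close matches, as CDKN1A differed from control by log2 0.94 with ultrasound only and 0.79 in the combination. AHNAK, a very large scaffold protein, was at 330 in control, 208 after Sonazoid, 450 after ultrasound and 458 after both. SERTAD1, a regulator of CDK4, was at 290, 187, 407 and 322, and the AP-1 subunit FOSL2 at 179, 143, 314 and 221 on the same arrays. Each was lower with Sonazoid only and higher with ultrasound, by less than CDKN1A; with 4 arrays such likeness is a description.

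The factors that brought the arrays to 1 trimmed mean were between 0.923 and 1.07. Of 14 listed markers of U937 and other myeloid cells 12 were above the floor on at least 1 array, and their summed signal was between 26059 and 32378, highest with ultrasound only. Single markers differed more than the sum. The receptor gene CSF1R was at 32.7 in control, 57.1 after Sonazoid, 93.1 after ultrasound and 78.9 after both, and the transcription factor gene SPI1 at 120.2, 83.0, 106 and 59.3 on the same arrays. The summed signals were 42.2 to 102 for 5 T cell markers, 99.0 to 129 for 3 B cell markers, 65.1 to 118 for 3 erythroid and platelet markers and 59.4 to 110 for 5 epithelial markers. Among the latter KRT8 was higher by 1.5-fold in both ultrasound comparisons, at the floor in control, 38.6 after Sonazoid, 43.2 after ultrasound and 59.2 after both. For 5 fibroblast and endothelial markers the summed signals were 816 to 946, of which PECAM1, which myeloid cells also express, made 648 to 810. Their part in the results was not tested.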

How the data were processed

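Affymetrix Human Genome U133 Plus 2.0 arrays were hybridised with RNA of 4 samples, 1 per group, labelled with the one-cycle 3′ kits per the labels' protocols. The deposited table holds a linear intensity for each probe set on each array, between 0.0486 and 21728; the sources used here do not state how the authors summarised or scaled it. From these, each array was scaled to a common mean after trimming 2% at each end, because the trimmed means differed 1.16-fold (above 1.1). Lower values were raised to the floor, the median of the scaled values, and log2 was taken (Python 3.11.15, numpy 2.4.6, pandas 2.3.3). Symbols came from the platform annotation (41097 probe sets with 1 symbol, 1801 with several, 11777 with none), updated through the RefSeq gene table of GRCh38.p14; 62 control probe sets were left out. The number of arrays limits the precision.

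All member probe sets are accounted for. A gene is named by its brightest probe set with 1 symbol. Of related lists, genes at 1.5-fold the same way in both ultrasound comparisons are named, and those farthest from 0 each way in the combination against control; others named were chosen after their values were seen (BTG, GADD45 and CDKN relatives, MDM4, PMAIP1, MYC and the repair genes among them). The 3 genes nearest in pattern are named for members at 1.5-fold in both ultrasound comparisons. Members and lists were chosen with earlier results of these data known. Promoters are from RefSeq, matched by symbol for 7 of the 10 genes. The calls were tried on simulated arrays, with planted changes larger than 1.5-fold. These were planted only in probe sets brighter in control than those of CDKN1A, PLK3, PHLDA3, GADD45A and SESN1. That trial does not bear on calls for these genes or for others as dim. Alternatives tried were the scaling, the floor, the probe set that stands for a gene and the fold that counts.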

Additional observations from a re-analysis of the deposited data

Results flagged for a closer look

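A dim MDM2 probe set, the third by brightness, stood out because Sonazoid had opposite differences by at least 1.5-fold without and with ultrasound. It was at log2 -0.83 for Sonazoid only against control and at 0.72 for the combination against ultrasound only. Its signals were 95.8 in control, 53.7 after Sonazoid, 32.3 after ultrasound and 53.4 after both. The difference was not tested, and in the same comparisons the brightest MDM2 probe set was at log2 0.02 and 0.09 and the next at 0.03 and -0.26.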

How the results depend on the processing

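No paired analysis was possible because each group has 1 array. The count of members higher by 1.5-fold in both ultrasound comparisons, 1 as reported, was 0 with a floor of 100, 0 with gene-specific probe sets (CDKN1A has none), 0 at 2-fold and 2 with the mean of probe sets above the floor, where PLK3 joined CDKN1A. The count higher in the combination against control, 3 as reported, was 1 with a floor of 100 (GADD45A) and 0 at 2-fold. With gene-specific probe sets that count was 2 (GADD45A and PLK3). The count lower in the combination against control, 1 as reported (PHLDA3), was 0 with the values as deposited, 0 with a floor of 100 and 0 at 2-fold. It was 2 with a floor of 10, where TP53INP1 joined. The counts of members lower with ultrasound, or the same way with Sonazoid, in both comparisons stayed at 0 under each alternative run. Of 211 single values recomputed, 201 kept their side of 1.5-fold, 10 crossed it and 0 past it turned sign. The 6 members above 0 in both ultrasound comparisons were the same with the values as deposited, under quantile normalisation, with a floor of 10 and with the mean of probe sets. With a floor of 100 they were 5 of the 6 members measured in both, without PLK3, and with gene-specific probe sets 3 of 4 (GADD45A, PLK3 and MDM2), where the members' median in the combination against Sonazoid only was 0.21 instead of 0.36. With the values as deposited the median of all genes moved by 0.17 (log2) in the combination against control and by 0.21 against ultrasound only, where the small negative values of CDKN1A, GADD45A, GADD45B, BTG1 and SESN1 became positive, but below that shift. With 1 array per group no spread between cultures could be measured, and genes with a mean signal under 100, CDKN1A, PLK3 and PHLDA3 among them, passed 1.5-fold most often in each of the 5 comparisons.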
